A study of Bos taurus with 15 samples.

Results

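These results concern 71 genes of bovine mammary tissue whose transcripts were, on the mean of 3 cows, close to their starting level 12 h after dexamethasone (DEX), differed from it at 24 h, and were close to it again at 72 h. They are 33 genes that were higher and 38 that were lower at 24 h, out of 24616 Ensembl gene identifiers in the deposited table, of which 4795 were abundant enough for the selection. The balance of the 2 directions depends on the scaling of the libraries, since the same selection gave 8 rises and 73 falls when the 20 most abundant genes were kept out of the library totals. The tissue came from needle biopsies of 4 non-pregnant Holstein cows in the second lactation, on average 55 days in milk (range 40 to 64). The 0 h biopsy was taken just before each cow received a single intramuscular injection of 40 mg of DEX, a synthetic glucocorticoid, and further biopsies followed at 12, 24 and 72 h. All of these cows were also given ampicillin over the biopsy days, and no untreated cow was sampled, so each cow served as its own control. For cows 2, 3 and 4 all 4 times were sequenced, and for cow 1 the times 0, 12 and 24 h. One of the cows stopped ruminating and left the experiment before the last biopsy, and cow 1 is taken to be that cow because it has no 72 h library.

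Each time point was biopsied from a different gland of the udder, the same one in every cow. A difference at 24 h and a difference of the gland sampled at 24 h therefore cannot be told apart. The injections were given in the evening, so the 12 h biopsies fell at another time of day than those at 0, 24 and 72 h. In a tissue sample, fewer cells of a type and less RNA per cell also cannot be told apart. The libraries were made with a 3′ tag method, which reads only the 3′ ends of transcripts, and held between 1804120 and 6228132 reads on genes. The shallowest was that of cow 4 at 0 h. The deposited table gives Ensembl identifiers without gene names, and the name table used here matched 0 of them, so genes are given by identifier and neither the labelled tissue nor the members could be checked against known marker genes.

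Glucocorticoids act through the glucocorticoid receptor, a transcription factor that moves into the nucleus when it binds the hormone. Some of its target genes respond within the first hours, and other genes change later, as the products of the earlier ones accumulate. In the lactating mammary gland glucocorticoids act together with prolactin to sustain the transcription of milk protein genes. The time points of this experiment show at which sampled times the level of a gene differed from that at 0 h. Since each time was taken from another gland, the order of responses cannot be read from them.

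The members were chosen by the normalized counts of cows 2 to 4, the values that are described next, so these values are a description and not a test. A normalized count is the number of reads of a gene times a constant that the authors set for each library. Changes are differences of log2(normalized count + 0.5) from the 0 h library of the same cow, averaged over the 3 cows. A gene was kept when its mean over the 12 libraries was at least 4 normalized counts, its change at 24 h was at least 0.8 in size and of the same sign in each cow, and its change was smaller than 0.4 at 12 h and 0.5 at 72 h. Of 287 genes that were higher by this limit on the mean at 24 h, with the same sign in all 3 cows, 47 also met the limit at 12 h and 33 the limit at 72 h as well. Of 198 genes that were lower, 44 met the limit at 12 h and 38 both limits. Most genes that differed at 24 h were thus already past the limit at 12 h, as the plot of the changes at 12 h and 24 h shows. The limit at 12 h was set on the mean, and opposite changes in single cows can cancel in it. Only 8 of the 33 rises and 4 of the 38 falls were within 0.4 of the 0 h level at 12 h in each of the 3 cows, as were 22.4% of all genes, and changes of single cows at 12 h ran from -0.94 to 1.30 for the rises and from -1.76 to 0.77 for the falls. The selection has sharp edges. The rising member nearest to the limit at 24 h had a change of 0.804 and the nearest gene left out had 0.799, while for the falls the changes were 0.805 and 0.78 in size. At 12 h the nearest values on either side of the limit were 0.396 and 0.405 for the rises, and 0.372 and 0.414 for the falls. At 72 h they were 0.496 and 0.515 for the rises, and 0.388 and 0.554 for the falls.

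**Figure D1:**
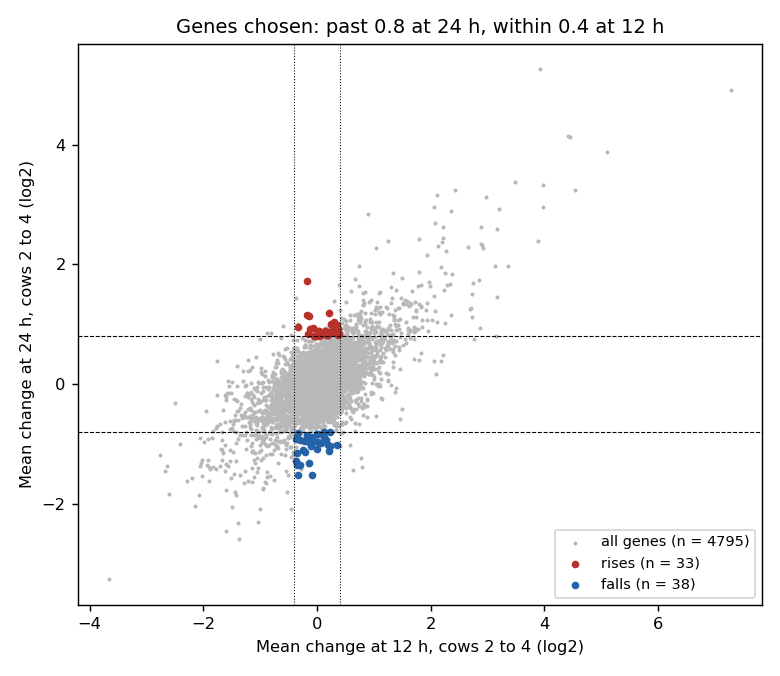
Mean change from 0 h at 12 h (horizontal axis) and at 24 h (vertical axis) in cows 2 to 4, both on the log2(normalized count + 0.5) scale, for 4795 genes in grey, with the 33 rises in red and the 38 falls in blue. Dashed lines mark 0.8 at 24 h and dotted lines 0.4 at 12 h. Genes far from 0 at 24 h mostly lie along the diagonal, and the members fill the narrow band between the dotted lines.

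The mean changes of the 33 rises at 24 h ran from 0.80 to 1.73, with a median of 0.89 against 0.05 for all 4795 genes. By cow the medians were 0.93 (cow 2), 0.82 (cow 3) and 1.02 (cow 4), values that the selection used. Within single genes the cows differed more, with an SD over cows between 0.05 and 1.45 (median 0.39), and only 3 of the 33 were past 0.8 in every one of these cows. At 12 h their changes ran from -0.34 to 0.40 with a median of 0.18, and 24 of 33 were already on the higher side of 0, where 56.7% of all genes were. At 72 h the median was 0.11, made up of -0.21 in cow 2, -0.04 in cow 3 and 0.40 in cow 4. Cow 4 thus stood on the higher side at 72 h, while the other two had returned to or below the 0 h level. The rises were genes of low abundance, with a median of 10.2 normalized counts over the 12 libraries and a highest mean of 42.0, against a median of 13.2 for all genes of the selection. Added together, the rises had 351 ± 12.7 normalized counts before DEX (SD, n = 3 cows) and 392 ± 26.6 after 12 h. The sum reached 684 ± 14.6 at 24 h and was 376 ± 50.0 at 72 h. Every 24 h sum lay above every sum at the other times.

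ENSBTAG00000014603 had the largest rise. At 0 h it had 6.8 normalized counts in cow 2, 8.42 in cow 3 and 1.74 in cow 4, and at 12 h it had 3.3, 4.31 and 5.01. At 24 h the values were 13.4 in cow 2, 15.6 in cow 3 and 23.2 in cow 4, and at 72 h they were 5.71, 6.5 and 3.55. The 24 h libraries were the highest in each cow and did not overlap with the libraries of any other time point. At 12 h its changes were -0.94, -0.89 and 1.3 in cows 2, 3 and 4, so its small mean change at 12 h joins cows that moved in opposite directions. Its mean change at 24 h was 1.73 (SD 1.45, n = 3 cows), and its mean level was 3.07 times that at 0 h. The size rests on cow 4, whose change of 3.4 compares with 0.93 and 0.85 in cows 2 and 3. Leaving out cow 4 gave a mean change of 0.89. In cow 4 the 0 h library held 3 reads of the gene and the 24 h library 86. The ratio in normalized counts was 13.4 (95% exact binomial interval 4.42 to 66.0, which covers counting error only).

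ENSBTAG00000011632 was next. At 0 h it had 11 normalized counts in cow 2, 7.52 in cow 3 and 12.2 in cow 4, and at 12 h it had 9.03, 13.3 and 13. At 24 h the values were 26.6, 19.6 and 25.1, and at 72 h 11, 6.5 and 11.1. The lowest 24 h library, at 19.6, was above the highest of the other 9, at 13.3. Its mean change of 1.19 at 24 h had an SD of only 0.16 (n = 3 cows), and was between 1.13 and 1.28 when any of the cows was left out. The mean level at 24 h was 2.33 times that at 0 h, from at least 21 reads in every library of cows 2 to 4.

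The 38 falls had mean changes at 24 h from -0.81 to -1.51, with a median of -0.95. By cow the medians were -0.83 (cow 2), -0.82 (cow 3) and -1.28 (cow 4), and cow 4 had the largest change of the 3 cows in 19 of the 38 genes. The SD over cows of single genes ran from 0.11 to 0.97 (median 0.52), and 4 of the 38 were past 0.8 in every one of these cows. At 12 h the median change was -0.12 and 27 of 38 were on the lower side of 0, where 43.3% of all genes were. At 72 h the median was 0.08, at 0.02 in cow 2, 0.19 in cow 3 and 0.02 in cow 4. On the mean 13 of the 38 were below the 0 h level at 72 h (46.4% of all genes were), where the selection had limited the size of the change. Their median abundance was 7.79 normalized counts, and 5 of the 38 averaged over 20. Without the most abundant of them, described below, the falls added up to 532 ± 33.0 normalized counts before DEX (SD, n = 3 cows) and 532 ± 49.7 after 12 h. The sum was 270.0 ± 39.5 at 24 h and 549 ± 37.7 at 72 h.

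ENSBTAG00000001174 had the largest fall. At 0 h it had 8.34 normalized counts in cow 2, 8.42 in cow 3 and 4.63 in cow 4, and at 12 h it had 3.96, 9.23 and 7.21. At 24 h the values were 1.47, 3.2 and 1.89, and at 72 h 8.56, 8.36 and 7.32. All 24 h libraries were below all others, although cow 2 was already low at 12 h. The mean change at 24 h was -1.51 (SD 0.57, n = 3 cows), from 7 to 15 reads per library at 24 h.

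ENSBTAG00000000406 had a change of the same size. At 0 h it had 7.68 normalized counts in cow 2, 5.41 in cow 3 and 13.3 in cow 4, and at 12 h it had 5.29, 8 and 6.21. At 24 h the values were 2.75, 3.2 and 1.89, and at 72 h 8.15, 11.1 and 4.6. The 24 h libraries lay close together and below all others, while the cows differed at 0 h and at 72 h. Its mean change at 24 h was -1.51 (SD 0.94, n = 3 cows), which became -1.0 without cow 4 and -1.93 without cow 3.

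The most abundant of the 71 genes, the 22nd most abundant of the whole table, belongs to the falls. It was singled out after its values were seen. At 0 h it had 2751 normalized counts in cow 2, 2785 in cow 3 and 2958 in cow 4. At 12 h it had 2399 in cow 2, 3107 in cow 3 and 2399.8 in cow 4. At 24 h it had 2336 in cow 2, 1177 in cow 3 and 1076 in cow 4, and at 72 h it had 2808, 2891 and 1246. The 24 h libraries were all below the 0 h libraries, but cow 2 had moved little: its change was -0.24, beside -1.24 and -1.46 in cows 3 and 4. In cow 4 the gene was still low at 72 h, with a change of -1.25. It was read between 3990 and 18687 times per library in cows 2 to 4, so counting error is small beside the differences between the cows. The next most abundant of the falls had 109.5, 123 and 128 normalized counts at 0 h in cows 2, 3 and 4, and 102, 195 and 139 at 12 h. At 24 h it had 94.3 in cow 2, 53.7 in cow 3 and 63.1 in cow 4, and at 72 h 115, 141 and 69.2. Here too cow 2 differed least from its 0 h level at 24 h, and cow 4 was still low at 72 h.

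**Figure D2:**
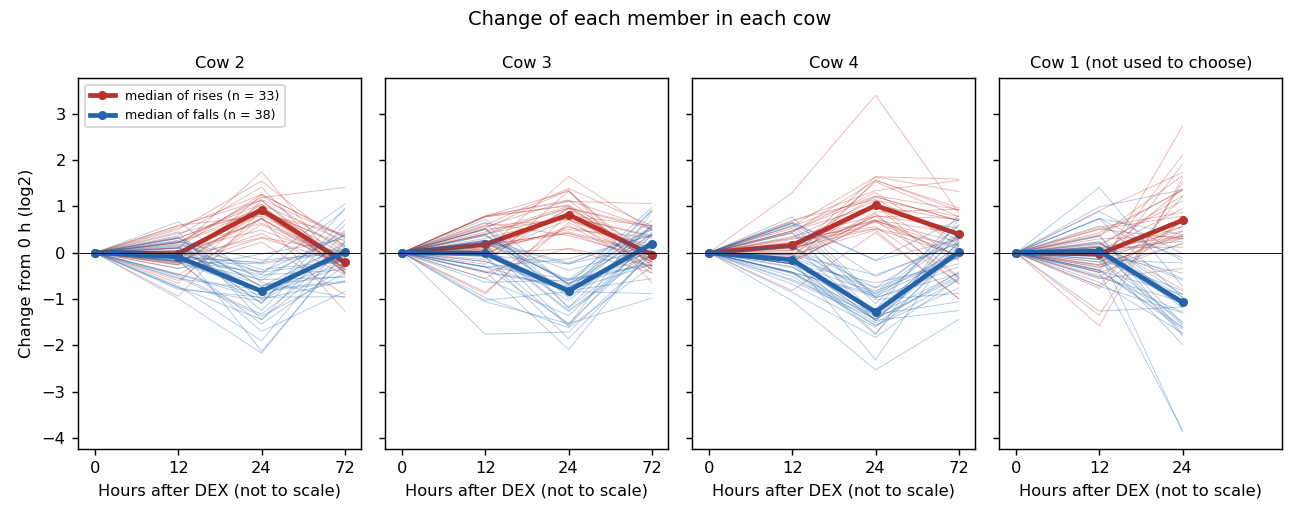
Change from 0 h on the log2(normalized count + 0.5) scale in each cow, with a thin line for each member and a thick line for the median of the 33 rises (red) and the 38 falls (blue). Cow 1 was not used for the selection and has no 72 h library. The medians stay near 0 at 12 h and part at 24 h in each panel, to 0.70 and -1.07 in cow 1.

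**Figure D3:**
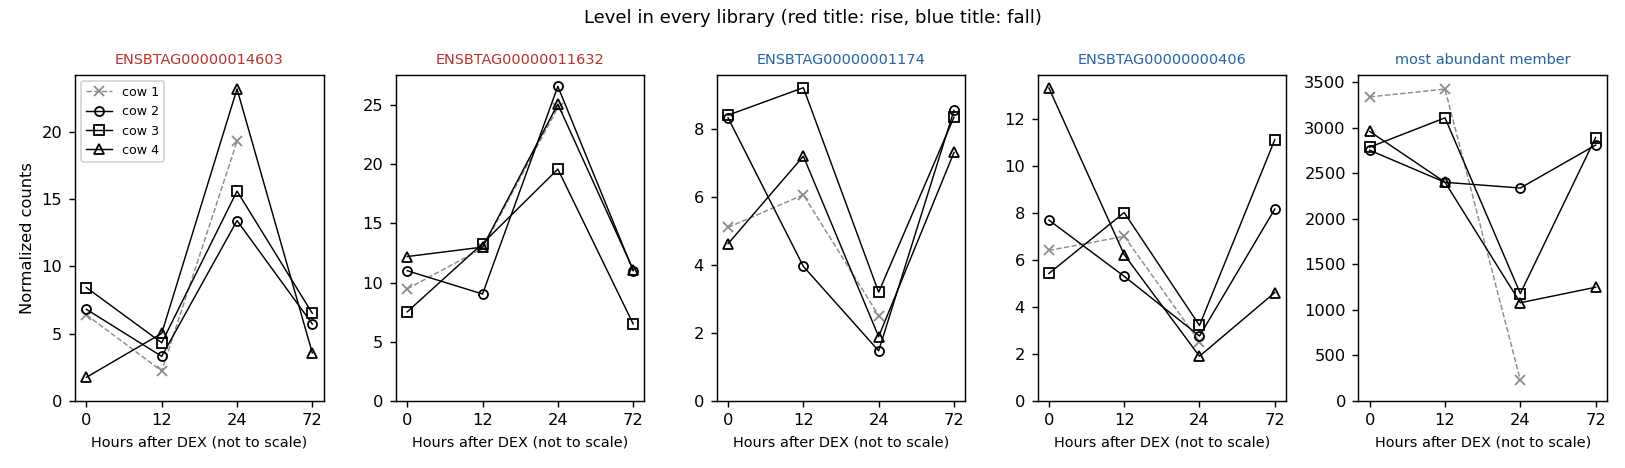
Normalized counts at each time point for the 2 genes with the largest rises, the 2 with the largest falls and the most abundant member, with a symbol and line for each cow and a dashed grey line for cow 1. Each panel has its own vertical axis, which starts at 0. At 24 h the named rises were highest in every cow, and the most abundant member reached 228 in cow 1 against 1076 to 2336 in the other cows.

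Cow 1 took no part in the selection, and its libraries at 0, 12 and 24 h give the same measurement in another animal. If it is the cow that was removed, it had stopped ruminating by the time of the 24 h biopsy. It would then also be the cow that gave no milk at 24 h before oxytocin, which all cows received at milking. Its state at 24 h and the response to DEX cannot be told apart in these values. In this cow, 31 of the 33 rises were higher at 24 h than at 0 h, where 46.6% of all 4795 genes were higher, and 34 of the 38 falls were lower, where 53.4% of all genes were. By the limit of 0.8, 15 of the 33 rises were higher (45.5%) against 11% of all genes, and 26 of the 38 falls were lower (68.4%) against 15.4%. The median change at 24 h was 0.70 for the rises and -1.07 for the falls, and -0.06 for all genes. These shares come from a single cow with 1 library per time point, so they carry no test. The deposited values of cow 1 added up to 1254962 at 0 h, the highest total of the 15 libraries, and to 808404 at 24 h. The shares were therefore also read under 2 other scalings, an alternative added after seeing the data. With median-ratio scaling 31 of the same 33 rises were higher in cow 1 (48.6% of all genes were) and 33 of the 38 falls were lower (51.3%). With the 20 most abundant genes kept out of the totals, 31 rises were higher (52.3% of all genes) and 33 falls were lower (47.7%).

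At 12 h, the median change in cow 1 was -0.03 for the rises and 0.03 for the falls, and 20 of the 33 and 25 of the 38 were within 0.4 of the 0 h level, as were 50.9% of all genes. Both conditions together, within 0.4 at 12 h and past 0.8 in the chosen direction at 24 h, were met in cow 1 by 8 of the 33 rises (2.77% of all genes) and 19 of the 38 falls (5.82% of all genes). Between 12 h and 24 h, 31 of the 33 rises went up in cow 1 and 34 of the 38 falls went down, where 44.9% and 55.0% of all genes did. The return at 72 h cannot be examined in this cow. Both ENSBTAG00000014603, with 6.39, 2.21 and 19.3 normalized counts at 0, 12 and 24 h, and ENSBTAG00000011632, with 9.46, 12.9 and 24.8, were highest at 24 h in cow 1. ENSBTAG00000001174, with 5.11, 6.07 and 2.51, and ENSBTAG00000000406, with 6.39, 6.99 and 2.51, were lowest at 24 h. The most abundant member had 3337 normalized counts at 0 h and 3423 at 12 h in cow 1, and 228 at 24 h, a change of -3.87 that was larger than in any other cow. Another member of the falls changed by -3.83 in cow 1, against -0.54, -2.09 and -1.43 in cows 2, 3 and 4. The 2 rises that were not higher in cow 1 had changes of -0.34 and -0.79, and the 4 falls that were not lower had changes of 0.19, 0.25, 0.39 and 1.36. Among members averaging 10 normalized counts or more, 18 of 18 rises were higher and 14 of 15 falls were lower in cow 1. The share of all genes of that abundance was not computed, so nothing is read from these counts.

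**Figure D4:**
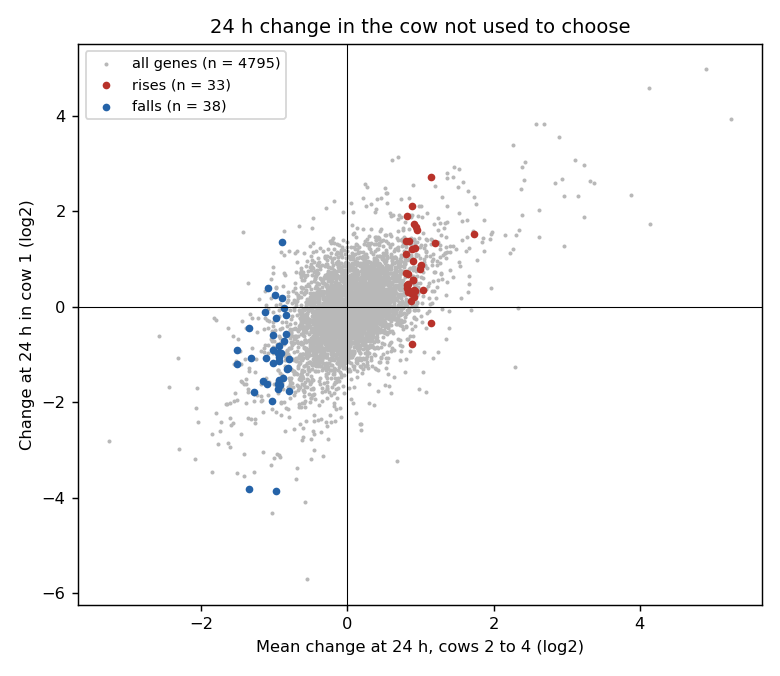
Change at 24 h in cow 1 (vertical axis) against the mean change at 24 h in cows 2 to 4 (horizontal axis), both on the log2(normalized count + 0.5) scale, for 4795 genes in grey, 33 rises in red and 38 falls in blue. The gap between red and blue along the horizontal axis is made by the selection, and the heights were not used. Of the red points 31 lie above 0, and of the blue points 34 lie below 0.

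The other cows can be read in the same way when each is left out of the selection in turn. This was done after the data were seen. When cow 2 was left out, the other cows chose 25 rises and 59 falls, of which 7 and 24 were among the 33 and 38. In cow 2 itself, 72.0% of those rises were higher at 24 h (56.5% of all genes were) and 78.0% of those falls were lower (43.5%). When cow 3 was left out, 55 rises and 83 falls were chosen, of which 19 and 21 were members. In cow 3, 90.9% of these rises were higher (51.8% of all genes) and 55.4% of the falls were lower (48.2%). When cow 4 was left out, 34 rises and 35 falls were chosen, of which 16 and 11 were members, and in cow 4 these were higher in 94.1% (54.0% of all genes) and lower in 74.3% (45.9%). The falls chosen without cow 3 were therefore near the share of all genes, both in cow 3 and in cow 1, where 50.6% of them were lower. The sizes were also smaller than in the cows that made the choice. The median change at 24 h in the cow left out was 0.39, 0.60 and 0.71 for the rises in cows 2, 3 and 4, and -0.30, -0.14 and -0.43 for the falls. Of the rises, 24.0%, 27.3% and 23.5% were past 0.8 in the cow left out (9.42%, 9.51% and 12.2% of all genes). Of the falls, 23.7%, 19.3% and 37.1% were (8.0%, 8.11% and 8.89% of all genes). These shares were lower than those of the members in cow 1, 45.5% and 68.4%. At 12 h the medians in the cow left out were 0.07, 0.35 and 0.09 for the rises, with cow 3 already on the higher side, and 0.00, 0.13 and 0.02 for the falls. At 72 h the same medians were -0.19, 0.01 and -0.10 for the rises and 0.08, 0.19 and 0.29 for the falls. The list of genes thus depended on which cows chose it. Whether the rises and the falls differ in this was not tested.

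**Figure D5:**
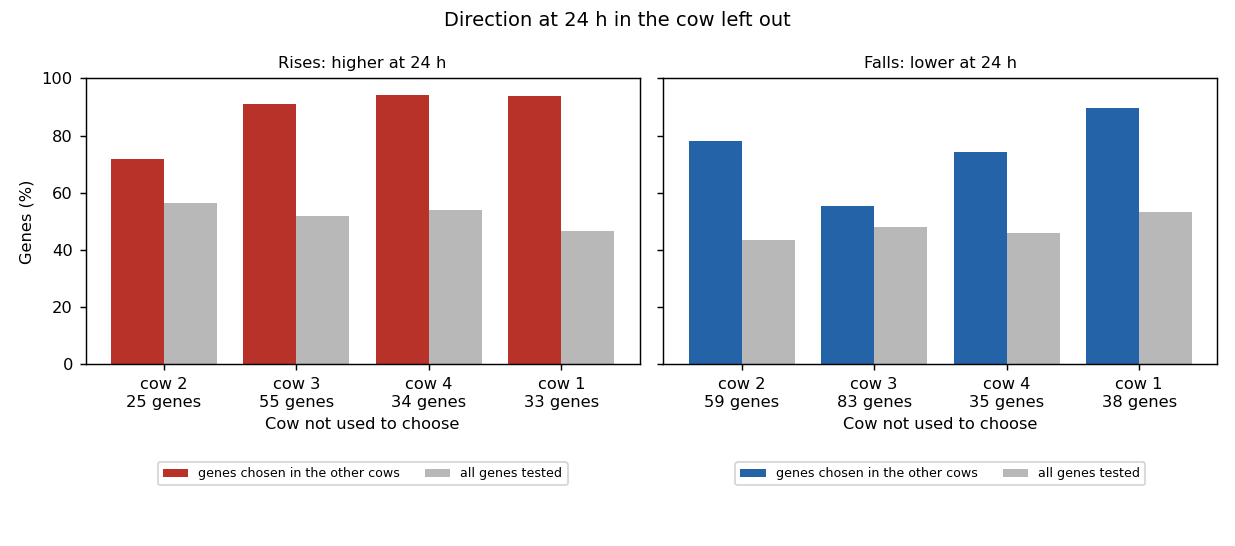
Share of genes (%) that were higher (left, rises) or lower (right, falls) at 24 h in the cow not used to choose them, as coloured bars, beside the share of all genes tested in that cow, as grey bars. The number of genes chosen by the other cows is under each bar pair, and cow 1 has the 33 and 38 genes of the main selection. The falls chosen without cow 3 stood at 55.4% against 48.2% of all genes.

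The separation of the time points in cows 2 to 4 was set in part by the selection, and is given without reading more from it. The 24 h libraries were all above the 0 h libraries in 32 of the 33 rises (16.1% of all genes) and all below them in 34 of the 38 falls (11% of all genes). They were above all other 9 libraries in 22 of the rises, against 4.13% of all genes, and below them in 23 of the falls, against 2.46%. With limma over all 13525 genes with a read, 9 of the 33 rises and 8 of the 38 falls had an adjusted p under 0.05 at 24 h, where 1.53% of all genes were higher and 0.776% were lower at that threshold. With edgeR on the recovered reads these numbers were 25 and 24, against 2.68% and 1.97% of all genes. The number of members past the threshold moved with the fit, and since the selection used this comparison nothing is read from it. With limma on the 4795 genes averaging at least 4 normalized counts it was 20 rises and 20 falls. In that fit 292 of the 4795 genes were higher and 154 lower. With cow 1 added it was 19 and 22, beside 300 higher and 224 lower of 13904 genes. It was 8 and 3 with limma-voom on the recovered reads, beside 189 higher and 106 lower of all 13525 genes. With a pseudocount of 2 it was 9 and 5 (200 and 91 of all genes), and with DESeq2 11 and 15 (259 and 159). With any of cows 2 to 4 left out it was 0 to 2 and 0 to 1. Among all genes, 53 to 71 were then higher and 20 to 28 lower, of 12979 to 13047 tested. The median number of reads behind a rise was 28 per library at 0 h and 73 at 24 h, and behind a fall 32 and 20, and in the 0 h library of cow 4 it was 14 and 16.

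Genes that had also moved by 12 h give a point of comparison. Of the genes past 0.8 at 24 h in cows 2 to 4, 238 had been higher by at least 0.4 at 12 h as well and 150 had been lower. In cow 1, 87.8% of the former were higher at 24 h and 91.3% of the latter were lower, beside 93.9% and 89.5% for the members described here. The shares past 0.8 in cow 1 were 56.7% and 68.0%, beside 45.5% and 68.4%. At 12 h the medians in cow 1 were 1.17 and -1.15 for these earlier genes, against -0.03 and 0.03 for the members. The earlier genes were somewhat more abundant, with medians of 16.5 and 11 normalized counts. Unlike the members, they did not have to meet the limit at 72 h, so the sets differ by more than the change at 12 h. None of these differences was tested, and those in cow 1 rest on a single animal.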

How the data were processed

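Per the labels and the study's methods, reads were cleaned (HTStream) and mapped to bovine genome UMD3.1 (STAR, version 2.6.0c), and counted per Ensembl gene. The authors deposited normalized counts, a signal equal to reads times 1 constant for each of 15 libraries, and their scaling method is not given in the sources used here. Whole reads were recovered from 100% of values (within 0.01 of a read). The members and lists were chosen with earlier results of these data known. The 24 h against 0 h comparison was fitted with limma (version 3.58.1, R 4.3.3, trend) using cows 2 to 4 (12 libraries, values as log2 after adding 0.5), a mean for each time, the within-cow correlation from duplicateCorrelation (0.0179) and Benjamini-Hochberg adjustment over 13525 genes. Libraries of a cow come from 1 animal, so cow numbers pair them, and deviations of same-cow libraries had correlations over 0.1 in 18 of 18 pairs (lowest 0.149). The limma p-values rest on the spread of the libraries of 3 cows within each time, pooled over the times. With so low a fitted correlation, libraries of a cow counted as nearly independent. Alternatives used edgeR (version 4.0.16), DESeq2 (version 1.42.0) and limma-voom on the recovered reads. In edgeR and DESeq2 cow was a fixed term, which takes differences between cows out of the spread. A count of 0 allows up to 3 reads, or 1.737 normalized counts at the lowest depth, for counting error only. With identifiers lacking names, the rule was to name the 2 genes furthest up and the 2 furthest down at 24 h, and the pathway and cell type lists were not used.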

Additional observations from a re-analysis of the deposited data

Results flagged for a closer look

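In groups of 4 cows at 0, 12 or 24 h, 35 groups of values (normalized counts and changes of the 4 named genes and of the most abundant member, and the medians of the rises and of the falls) were examined for a cow far from the others. In 4 of them the gap to the nearest cow, divided by the range, was past the 95% critical value of Dixon's test. Cow 2 stood apart in ENSBTAG00000011632 at 12 h, at 9.03 normalized counts, while the others had 12.9 to 13.3. Cow 3 stood apart at 12 h in the median of the rises, with 10.9 normalized counts against 9.02 to 9.03, and in the median of the falls, with 8.21 against 8.82 to 8.92. Cow 2 stood apart at 24 h in the median of the falls, with 5.32 normalized counts against 4.31 to 4.44. The genes were chosen by the values of cows 2 to 4 and not by those of cow 1, and the groups share genes and libraries, so the usual rate of 1 group in 20 by chance cannot be applied and these gaps are a description. What set these cows apart was not tested.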

How the results depend on the processing

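The alternatives were the settings named here, a pseudocount of 0.1 and limma-voom. Of 82 values, 51 moved little (a count by less than 1.5 times) and 31 moved more. The lists were small and moved with the settings. With a pseudocount of 2 there were 25 falls (19 of them among the 38). A minimum mean of 10 normalized counts left 18 rises, 100% of them higher in cow 1, and 15 falls, and with limits of 0.3 at 12 h and 72 h 16 and 23. Without a filter on low values there were 82 rises and 102 falls, of which 66.7% were lower in cow 1 (median change -0.57). When the 20 most abundant genes were kept out of the library totals used for scaling, the median of all genes at 24 h went from 0.05 to -0.105, and 8 rises (6 shared) and 73 falls (31 shared) met the rule, the falls with a median of -0.72 in cow 1. With median-ratio scaling 27 of the rises and 36 of the falls remained, and the rises had a median of 0.60 in cow 1. Leaving out a cow gave 25 to 55 rises and 35 to 83 falls. In cow 1, 84.0% to 92.7% of these rises were higher (median 0.51 to 0.63) and 50.6% to 91.5% of the falls were lower (median -0.93 to -0.02).

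In limma, 207 genes were higher and 105 lower at 24 h, and leaving out a cow gave 53 to 71 and 20 to 28. These were 190 and 90 with no replicate block and 265 and 156 with cow as a fixed term of the replicate block. With cow 1 added 224 genes were lower. edgeR gave 363 higher and 267 lower, and DESeq2 159 lower. With medians of 28 to 32 reads per library at 0 h, changes near the limits rest on few reads.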
